A study of Mus musculus with 4 samples.

Results

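Osteoclast genes and the regulators of osteoclast formation were examined in the middle ears of mice that had inhaled diesel exhaust particles (DEPs) and in control middle ears. The 10 genes were chosen by name: Tnfsf11, Tnfrsf11a and Tnfrsf11b, which encode a ligand, its receptor and its decoy receptor; Oscar and Calcr, which encode surface receptors of osteoclasts; Dcstamp, Ocstamp and Atp6v0d2, which act in cell fusion; and Acp5 and Ctsk, which encode enzymes of resorption. Every probe whose target accession maps to one of these symbols was taken, which gave 12 probes of 39429, with 2 probes each for Acp5 and Atp6v0d2, and 10 of the 20971 named genes that had a probe. The samples were extracts of dissected middle ears from male BALB/c mice. The mice labelled DEP inhaled the particles on several consecutive days and were killed more than a week later, and the control extracts are named only as control ears. Each of 4 two-colour arrays carried, by the source names, RNA of a DEP ear labelled red (Cy5) and RNA of a control ear labelled green (Cy3).

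The labels do not say how many mice stand behind an extract, nor whether a single control extract was used on all arrays, so p-values measure the spread between these arrays. No array had its dyes swapped, so dye preference and exposure cannot be told apart. The treatment labels contradict the source names, since Cy5 has both treatments and Cy3 has neither. The source names were therefore followed, and each ratio is DEP (Cy5) over control (Cy3) on the log2 scale, as labelled. This direction opposes the one in which the study describes its changed genes. The paper also reports qRT-PCR of several of its genes in the direction it describes, and those data were not used here. In a bulk extract, fewer cells of a type and less RNA per cell cannot be told apart.

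Osteoclasts are multinucleated cells that dissolve mineralized bone, and they form by fusion of precursors of the monocyte and macrophage lineage. Osteoblasts, osteocytes, stromal cells and activated T cells present the ligand RANKL (Tnfsf11), which binds RANK (Tnfrsf11a) on the precursors, while osteoprotegerin (Tnfrsf11b) binds the ligand and blocks it. RANK signals through TRAF6, NF-kB and AP-1 to NFATc1, and NFATc1 acts together with MITF and PU.1 on the genes for fusion and resorption. The temporal bone that surrounds the middle ear is remodelled by these cells, and chronic otitis media can erode the ossicles.

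The promoter table of RefSeq (build GRCm38.p6), which gives 250 bases before and 50 after a gene's start, held 9 windows for 6 of the 10 genes. In these windows both strands were searched for the NFAT core GGAAA, the AP-1 site TGANTCA and the M-box TCANNTGA, an E-box with flanking bases of the kind that MITF binds. The NFAT core stood in 7 of the 9 windows, against 61.3% of the 32851 windows of all genes, the AP-1 letters in 0, against 7.81%, and the M-box letters in 2, against 8.39%. The windows with an M-box belonged to Acp5 and Ctsk. They are shown with the window of Oscar, which held 4 NFAT cores and no M-box, and whose ratios had the same order over the arrays as those of Acp5. Capitals mark the NFAT cores, in either orientation, and the M-box, and none of these matches overlap. The Acp5 window lies at chr9:22130549-22130848 on the minus strand and is 1 of 3 for this gene, chosen because it holds the M-box TCACATGA at 91 bases before the start. The Ctsk window lies at chr3:95498960-95499259 on the plus strand and holds TCAGATGA at 136 bases before the start. The Oscar window lies at chr7:3616108-3616407 on the minus strand. A match describes the letters only, and no binding was measured in this study.
Acp5: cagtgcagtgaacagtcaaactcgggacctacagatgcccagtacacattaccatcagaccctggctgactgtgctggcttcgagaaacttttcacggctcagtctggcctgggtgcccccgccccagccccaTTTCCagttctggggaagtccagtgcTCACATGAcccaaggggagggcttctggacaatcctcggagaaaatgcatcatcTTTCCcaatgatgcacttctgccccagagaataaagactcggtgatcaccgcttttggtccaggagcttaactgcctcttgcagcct
Ctsk: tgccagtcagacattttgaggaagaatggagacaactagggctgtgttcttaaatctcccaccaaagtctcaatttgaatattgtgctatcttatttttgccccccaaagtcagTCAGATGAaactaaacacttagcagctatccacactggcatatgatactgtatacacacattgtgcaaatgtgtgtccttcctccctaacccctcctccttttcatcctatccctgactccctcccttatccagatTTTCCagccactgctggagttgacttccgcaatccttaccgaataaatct
Oscar: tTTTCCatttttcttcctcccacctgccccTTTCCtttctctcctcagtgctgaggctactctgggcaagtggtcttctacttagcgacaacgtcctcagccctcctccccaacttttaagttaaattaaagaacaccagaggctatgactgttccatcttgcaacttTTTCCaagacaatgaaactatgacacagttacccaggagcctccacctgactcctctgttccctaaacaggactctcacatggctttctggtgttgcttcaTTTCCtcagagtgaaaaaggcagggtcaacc

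The values used here are the processed signals of the image software, which are background-subtracted and normalized for the dyes within an array but not between arrays, and their ratio. A ratio of 1 on the log2 scale is a 2-fold difference. Whether a mean ratio differed from 0 was tested in limma (moderated, two-sided, Benjamini-Hochberg adjustment over 31577 probes), and where a gene had several probes the brightest one stood for it. All 10 genes had a ratio on every array and no spot of theirs was saturated or marked as an outlier by the software. A spot counts as detected where the software marked it as well above background. The brightest probe was detected in Cy5 and Cy3 on all 4 arrays for 8 genes. For Calcr and Tnfsf11, Cy5 was detected on 4 arrays and Cy3 on 2, arrays 1 and 2. Per array, 66.6% to 70.0% of all spots were detected in Cy5 and 60.5% to 69.1% in Cy3. Signals are compared only within a probe, since probes differ in brightness.

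The transcript of the ligand RANKL was dim, and its ratio was above 0 on every array. The Cy5 signals of Tnfsf11 were 49.9, 44.0, 20.9 and 45.0 on arrays 1 to 4. Its Cy3 signals were 37.6, 35.2, 11.6 and 29.2. Cy5 was the brighter channel on each array, although the ranges of the channels overlap because both were lowest on array 3. The log2 ratios were 0.41, 0.32, 0.85 and 0.62, with a mean of 0.55 ± 0.23 (SD, n = 4; SE 0.13; 1.46-fold). This did not pass limma's test after adjustment (adjusted p = 0.167). On arrays 1 and 2, where both channels were detected, the mean was 0.37, or 1.29-fold. On array 4 the lowest Cy3 signal of any detected spot was 33.2, and the Cy5 signal was 1.36-fold above it. Being the lowest over all spots, that signal is not a detection limit for this probe, so no bound on the fold follows. On array 3 the lowest detected Cy3 signal was 36.5, the Cy5 signal lay below it, and no fold can be given. With normexp background correction the mean ratio was 0.13 after loess and −0.020 after median centring, so the direction changed with the processing.

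The receptor RANK stood apart on 1 array. The Cy5 signals of Tnfrsf11a were 1851, 888, 723 and 838. Its Cy3 signals were 830.0, 732, 813 and 950.2. The log2 ratio was 1.16 on array 1, 0.28 on array 2, −0.17 on array 3 and −0.18 on array 4. The mean of 0.27 ± 0.63 (SD, n = 4; SE 0.26) was smaller than its spread (adjusted p = 0.597), and it was −0.024 without array 1 and 0.65 with normexp and median centring (adjusted p = 0.0834). RANK was thus 2.23-fold higher in the channel labelled DEP on array 1, and its ratio lay between −0.18 and 0.28 on the others.

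The decoy receptor osteoprotegerin had a ratio below 0 on array 1 and above 0 on the other 3. The Cy5 signals of Tnfrsf11b were 1663, 1841, 1686 and 1660.3. Its Cy3 signals were 1980.1, 1540.4, 1209 and 961. Divided by the median of its channel, the signal spread 1.56-fold over the arrays in Cy5 and 1.37-fold in Cy3. The log2 ratios were −0.25, 0.26, 0.48 and 0.79, with a mean of 0.32 ± 0.44 (SD, n = 4; SE 0.20; adjusted p = 0.423), which was 0.16 without array 4, 0.51 without array 1 and 0.71 with normexp and median centring (adjusted p = 0.0782). The balance of ligand to decoy is often read as a measure of the drive to resorption. The log2 ratio of Tnfsf11 minus that of Tnfrsf11b was 0.66, 0.07, 0.37 and −0.17 on arrays 1 to 4, a mean of 0.23 ± 0.36 (SD, n = 4; p = 0.375 in a two-sided exact sign-flip permutation test, which 4 arrays cannot bring under 0.05). The values of arrays 3 and 4 rest on a Cy3 signal of Tnfsf11 that was not detected. Normexp followed by loess gave a difference of −0.26 and normexp followed by median centring one of −0.74, so its direction was not settled.

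**Figure D1:**
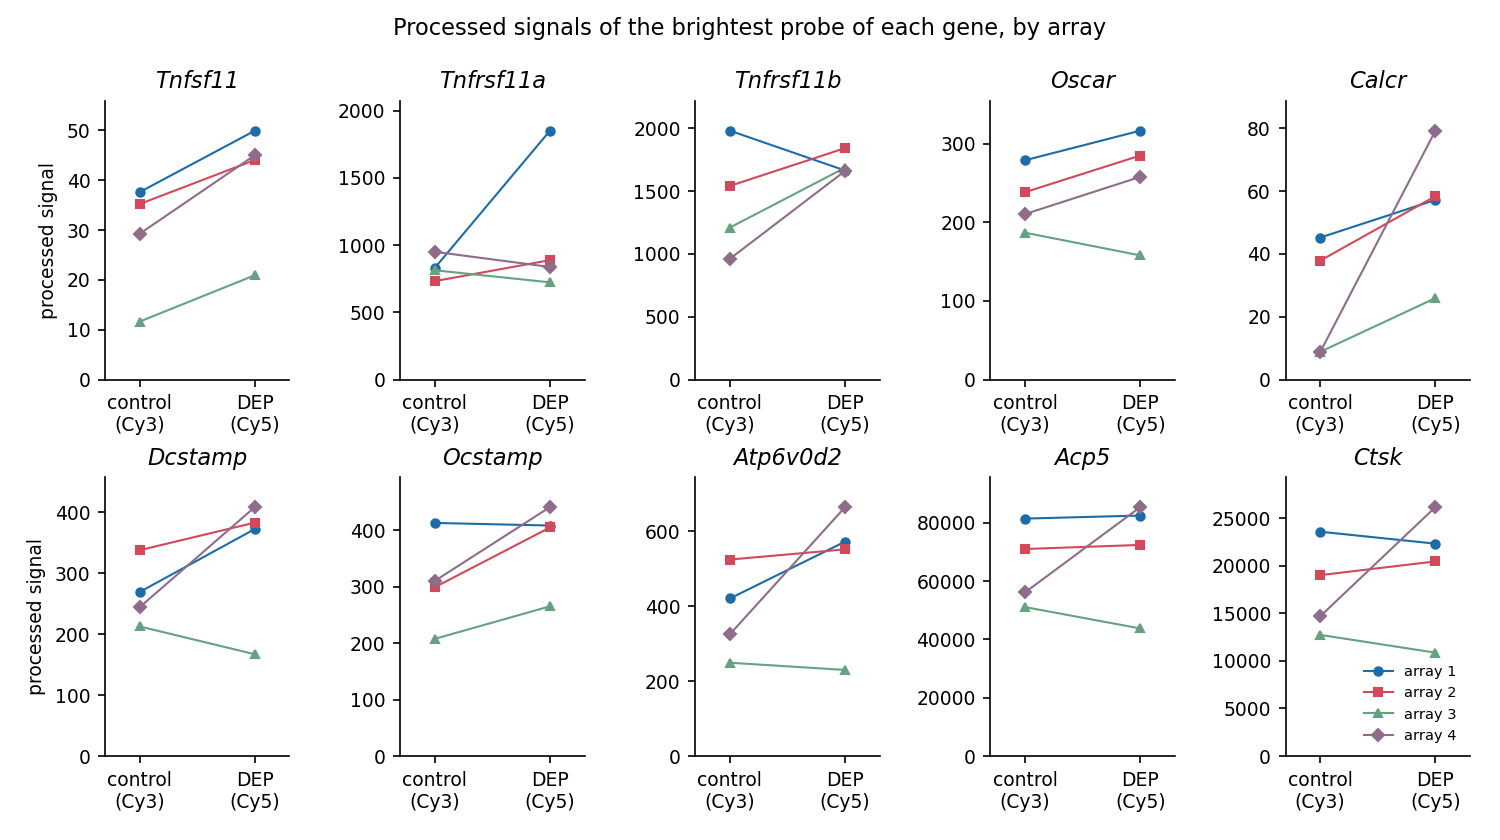
Processed signals of the brightest probe of each of the 10 genes, with the channel labelled control (Cy3) on the left, the channel labelled DEP (Cy5) on the right and a line for each of the 4 arrays; each vertical axis starts at 0 and is linear. Array 3 has the lowest Cy5 signal for every gene except Tnfrsf11b, Tnfrsf11a is high in Cy5 on array 1 alone, and the lines of Acp5 and Ctsk climb on array 4 and go down on array 3.

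The calcitonin receptor had a dim probe and a ratio above 0 on every array. Calcitonin binds this receptor on osteoclasts and stops resorption. For Calcr, the Cy5 signals were 57.2, 58.4, 25.9 and 79.3. Its Cy3 signals were 45.2, 37.9, 8.83 and 8.72, and the last 2 were not detected. The log2 ratios of 0.34, 0.63, 1.56 and 3.18 were all above 0, and their mean was 1.43 ± 1.28 (SD, n = 4; SE 0.51; adjusted p = 0.247). The ratio of 3.18 on array 4 rests on a control signal that was not measured above background. The Cy5 signal there was 2.39-fold above the lowest detected Cy3 signal of any spot, 33.2, which is no bound on the fold. On array 3 the Cy5 signal lay below the lowest detected Cy3 signal of that array, 36.5, and no fold can be given. On the 2 arrays where both channels were measured the mean was 0.48, or 1.40-fold. The mean was 0.84 without array 4. It was 0.24 after normexp and loess, and 0.11 where median centring replaced loess.

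Oscar, an immunoglobulin-like receptor for collagen, signals through the adaptor FcRγ (Fcer1g) and gives osteoclast precursors their costimulatory signal. In Cy5, Oscar gave signals of 317, 285, 158 and 258. Its Cy3 signals were 279, 238, 187 and 211. The DEP channel was the brighter on arrays 1, 2 and 4 and the dimmer on array 3. The log2 ratios of 0.18, 0.26, −0.24 and 0.29 had a mean of 0.12 ± 0.25 (SD, n = 4; SE 0.14; adjusted p = 0.644), which was −0.0023 with normexp and loess, 0.24 without array 3 and 0.07 without array 4.

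Of the fusion genes, Dcstamp and Ocstamp encode the transmembrane proteins that mononuclear precursors need to fuse. Dcstamp had Cy5 signals of 373, 383, 167 and 409, against 269, 338, 213 and 244 in Cy3. Its log2 ratios were 0.47, 0.18, −0.35 and 0.74 (mean 0.26 ± 0.47, SD, n = 4; SE 0.21; adjusted p = 0.522). Dcstamp was higher in the DEP channel on 3 arrays and lower on array 3, and its mean was 0.46 without array 3 and 0.10 without array 4. Ocstamp had Cy5 signals of 408, 405, 265 and 441, against 413, 299, 207 and 310.0 in Cy3. Its log2 ratios were −0.02, 0.44, 0.35 and 0.51 (mean 0.32 ± 0.23, SD, n = 4; SE 0.13; adjusted p = 0.288). Ocstamp differed from Dcstamp in that its ratio was above 0 on array 3 and about 0 on array 1, and its mean was 0.20 with normexp and loess.

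Atp6v0d2, the d2 subunit of the membrane part of the proton pump, acts in precursor fusion and is abundant in osteoclasts. It had 2 probes. The brighter, A_66_P124179, had Cy5 signals of 573, 552, 229.8 and 665 and Cy3 signals of 421, 525, 249 and 325. Its log2 ratios were 0.44, 0.07, −0.12 and 1.03 (mean 0.36 ± 0.51, SD, n = 4; SE 0.22; adjusted p = 0.42). The dimmer, A_52_P71686, had Cy5 signals of 156, 158, 80.0 and 179.6 and Cy3 signals of 99.7, 135, 60.7 and 83.2. Its log2 ratios were 0.65, 0.22, 0.40 and 1.11 (mean 0.60 ± 0.39, SD, n = 4; SE 0.18; adjusted p = 0.207). The probes gave opposite signs on array 3, and both gave their highest ratio on array 4, where the channel labelled DEP was 2.05-fold and 2.16-fold higher. Without array 4 the mean of the brighter probe was 0.13.

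The resorption enzymes followed one another over the arrays. Acp5 encodes tartrate-resistant acid phosphatase (TRAP), the enzyme by which osteoclasts are stained. Its brighter probe, A_55_P2037608, had Cy5 signals of 82478, 72406.5, 43753 and 85391.5. The Cy3 signals were 81435.5, 70998, 51084 and 56111.5. The channels were nearly equal on arrays 1 and 2, Cy5 was the dimmer on array 3 and the brighter on array 4. The log2 ratios were 0.02, 0.03, −0.22 and 0.61, with a mean of 0.11 ± 0.35 (SD, n = 4; SE 0.17; adjusted p = 0.745). The dimmer probe, A_55_P1997766, gave 0.03, 0.09, −0.15 and 0.67, with a mean of 0.16 ± 0.35 (SD, n = 4; SE 0.17; adjusted p = 0.624). The probes had the same sign on each array and differed by less than the spread between arrays.

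Ctsk encodes cathepsin K, the protease that degrades type I collagen in the resorption pit. Its Cy5 signals were 22341, 20473, 10869.8 and 26192. Its Cy3 signals were 23601, 19028, 12746 and 14690.4. The log2 ratios were −0.08, 0.11, −0.23 and 0.83, with a mean of 0.16 ± 0.47 (SD, n = 4; SE 0.21; adjusted p = 0.695). Cathepsin K was 1.78-fold higher in the DEP channel on array 4 and its ratio lay between −0.23 and 0.11 on the others. The share of all genes with a ratio above that of Ctsk was 53.5%, 47.3%, 74.6% and 5.38% on arrays 1 to 4. Without array 4 the mean ratios were −0.059 for Acp5 and −0.068 for Ctsk. With normexp and median centring, without loess, Acp5 had a mean ratio of 0.97 and passed the test (adjusted p = 0.0341; over all alternatives the adjusted p ran from 0.0341 to 0.862). Ctsk had a mean of 0.74 there and did not pass (adjusted p = 0.0576). Of all named genes 12.4% passed with normexp and median centring, which moved the median of all genes from 0.04 to 0.19 and that of the 1797 brightest genes, Acp5 and Ctsk among them, from −0.015 to 0.54. With normexp and loess Acp5 had a mean of 0.20.

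**Figure D2:**
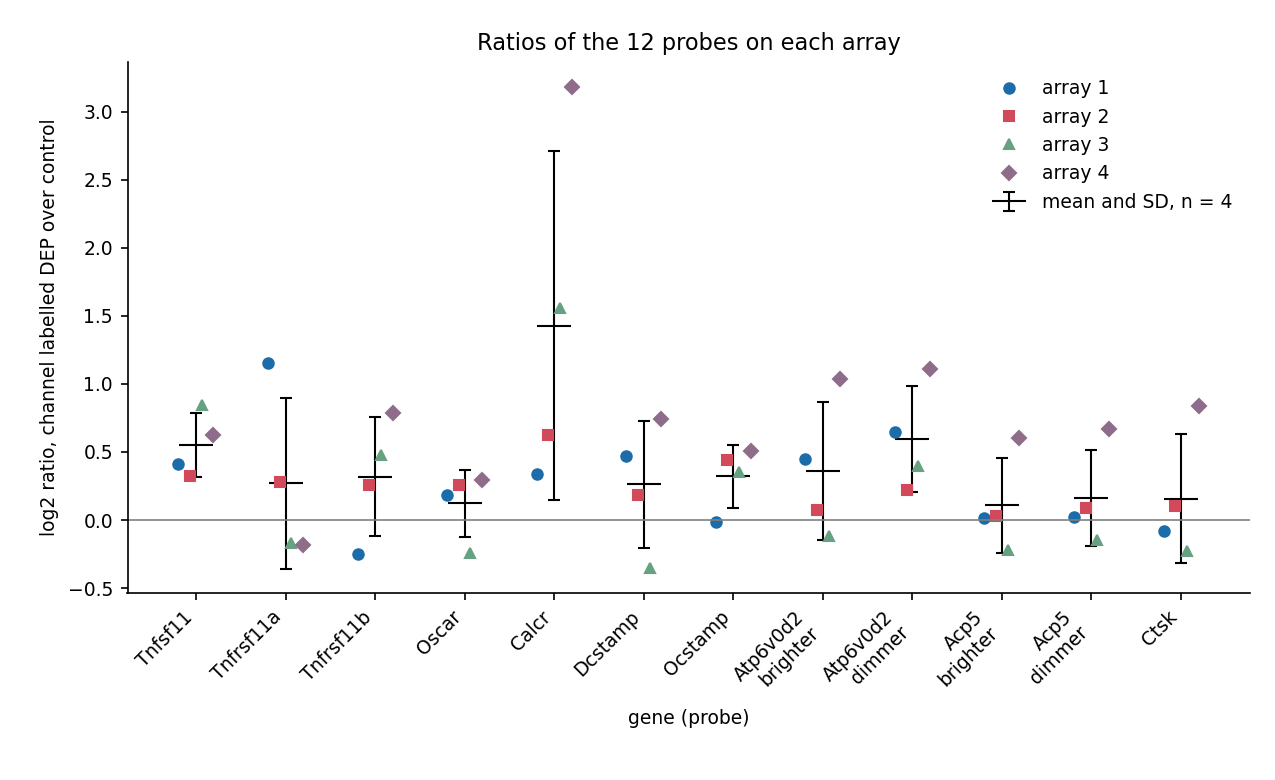
Log2 ratio, channel labelled DEP over control, for the 12 probes on each of the 4 arrays, with the mean and SD (n = 4) as a black bar. The points of Tnfsf11, Calcr and the dimmer Atp6v0d2 probe lie above 0 on all arrays, and the SD bar crosses 0 for Tnfrsf11a, Tnfrsf11b, Oscar, Dcstamp, the brighter Atp6v0d2 probe, Acp5 and Ctsk.

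Set against all genes, the 10 genes were not called. At an adjusted p under 0.05 limma called 0 of the 10, as it called 0 of all 17962 named genes tested (0%), with a smallest adjusted p of 0.0922 over all probes. At an unadjusted p under 0.05, 2 of the 10 were higher in the channel labelled DEP, Tnfsf11 and Calcr, against 9.20% of all genes, and 0 were lower, against 7.50%. Both are genes with Cy3 not detected on some arrays, and of the 963 genes detected in Cy5 on all arrays and in Cy3 on 1 to 3, 26.6% were higher at that threshold. A mean ratio past 2-fold was reached by 1 of the 10, Calcr, against 2.15% of all genes in the higher direction, and by 0 in the lower direction, against 4.10%. That of Calcr rests on the ratios of arrays 3 and 4, where its control signal was not well above background, and the fold was 1.40 on the other 2. A ratio above 0 on all 4 arrays was found for 2 of the 10, against 16.2%, and a ratio below 0 on all 4 for 0, against 10.2%. For 0 of the 10 did the Cy5 signals lie wholly above the Cy3 signals, against 1.33% of all genes.

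The mean ratio was above 0 for 10 of the 10 genes, against 55.3% of all genes, and the median of the 10 means was 0.29, against 0.04 for all genes. Over the 8 genes detected in both channels on every array the median was 0.27, against 0.04 for the 14294 such genes. Both medians lean on array 4. Without it the means were 0.53 for Tnfsf11, 0.42 for Tnfrsf11a, 0.16 for Tnfrsf11b, 0.07 for Oscar and 0.84 for Calcr. Those of Dcstamp, Ocstamp, Atp6v0d2, Acp5 and Ctsk were 0.10, 0.26, 0.13, −0.059 and −0.068. The count above 0 was lower under some settings: Oscar was below 0 with normexp and loess, Tnfsf11 with normexp and median centring, Tnfrsf11a without array 1, and Acp5 and Ctsk without array 4.

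**Figure D3:**
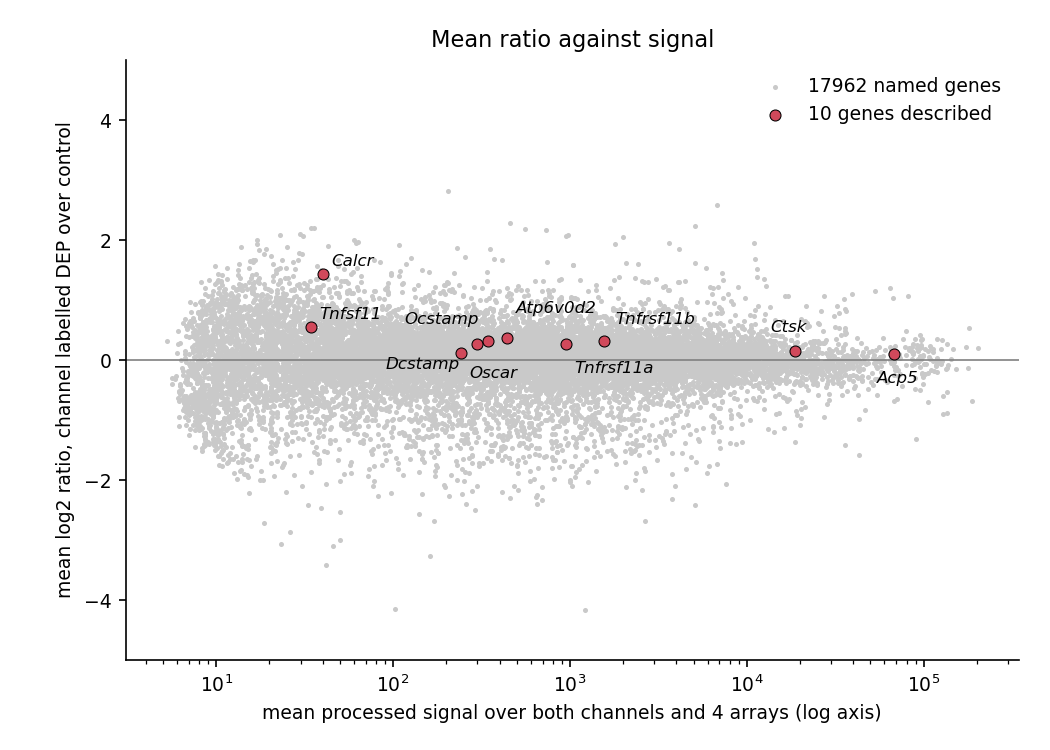
Mean log2 ratio over the arrays against the mean processed signal (log axis) for the 17962 named genes tested, with the 10 genes in red; brightness differs between probes and is not a level of expression. Calcr lies at 1.43 among dim probes and the other 9 genes lie between 0.11 and 0.55, inside the cloud of genes of like signal; 5 of the 10 signs turned under at least 1 other setting.

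The arrays differed from each other in these genes. The median of the 10 ratios was 0.26 on array 1, 0.26 on array 2, −0.14 on array 3 and 0.68 on array 4. The number of the 10 above 0 was 7, 10, 4 and 9 on the respective arrays. The medians of all genes were −0.03, 0.08, 0.03 and 0.06, with 47.5%, 59.5%, 53.2% and 56.6% of genes above 0. By their median the 10 genes were thus highest on array 4 and lowest on array 3, while the medians of all genes differed little. Single genes departed from this: Tnfsf11 was highest on array 3 and Tnfrsf11a lowest on array 4.

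For 5 of the 10 genes, Oscar, Dcstamp, Atp6v0d2, Acp5 and Ctsk, the ratio was lowest on array 3 and highest on array 4, against 4.55% of the 17298 genes with a ratio on every array. For Atp6v0d2 the brighter probe had this order, while the ratio of the dimmer was lowest on array 2, at 0.22. This order was looked for after the values had been seen, so its count is a description. The count was 6 with normexp and loess, 4 where median centring replaced loess and 5 under the other settings that keep all arrays. The other 5, Tnfsf11, Tnfrsf11a, Tnfrsf11b, Calcr and Ocstamp, did not have it. The Cy5 signal, scaled by the median of its channel, was lowest on array 3 for 9 of the 10 genes, the exception being Tnfrsf11b, against 20.8% of all genes. Ocstamp barely counts here, with scaled signals of 1.19 on arrays 1 and 3. The Cy3 signal scaled in the same way was lowest on array 3 for 6 of the 10, against 28.8%, but for Tnfsf11 and Calcr it was not detected there. Among the 8 genes detected in both channels on every array, Cy5 was lowest on array 3 for 7, against 21.2% of such genes, and Cy3 for 4, Ocstamp, Atp6v0d2, Acp5 and Ctsk, against 29.2%. Array 3 was thus the lowest in both channels for Atp6v0d2, Acp5 and Ctsk, but in Cy3 the margin was narrow for Acp5 and Atp6v0d2. The scaled Cy3 signals of Acp5 were 225.7 on array 3 and 235.5 on array 1. Those of Atp6v0d2 were 1.1004 and 1.216. For Ctsk they were 56.32 on array 3 and 66.18 on array 4, the next lowest. The spread of Atp6v0d2, Acp5 and Ctsk over the arrays was 1.84-fold, 1.21-fold and 1.304-fold in Cy3. In Cy5 it was 2.94-fold, 1.99-fold and 2.45-fold.

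Other genes of the osteoclast pathway were read from 5 lists arranged by role, with 67 genes, of which 65 were tested. At an adjusted p under 0.05, 0 of the 65 were called. At an unadjusted p under 0.05, 6 were higher and 1 was lower, against 9.20% and 7.50% of all genes, and 40 had a mean ratio above 0, against 55.3%. The median of the 65 mean ratios was 0.05, against 0.04 for all genes. Their medians on arrays 1 to 4 were 0.05, 0.11, −0.07 and 0.15, so array 3 was the lowest and array 4 the highest here also, over a narrower range than in the 10 genes.

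Of the 11 genes for resorption, 1 was higher at an unadjusted p under 0.05, against 9.20% of all genes: Plekhm1, which acts in the traffic of lysosomes to the ruffled border. Its mean ratio was 0.28 ± 0.09 (SD, n = 4; adjusted p = 0.256), with 4 of 4 arrays above 0. Mmp9, a gelatinase of osteoclasts and neutrophils, stood at 0.44 ± 0.43 (adjusted p = 0.301). The lowest means were those of Snx10, a sorting nexin that osteoclasts need for acid secretion, at −0.42 ± 0.58 (adjusted p = 0.404), and of the membrane protease Mmp14 at −0.34 ± 0.36 (adjusted p = 0.341). Without array 3 these were −0.26 and −0.18, and without array 4 that of Snx10 was −0.68. The median of this list was 0.05. The order with array 3 lowest and array 4 highest was found for Ostm1 (named after its values were seen), Snx10 and Mmp14, 3 of the 10 with a ratio on every array, against 4.55% of all genes. It was found for 4 of 18 genes in the list of signals, and for 0 in the lists for fusion, for RANK signalling and for growth factors (12, 18 and 5 genes).

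Of the 12 tested genes for fusion, adhesion and costimulation, 0 reached an unadjusted p under 0.05, and the median was −0.03. Of all genes 9.20% were higher and 7.50% lower at that threshold. The adaptors Fcer1g and Tyrobp, which carry the signals of Oscar and Trem2, had means of 0.44 ± 0.56 (SD, n = 4; adjusted p = 0.372) and 0.19 ± 0.77 (adjusted p = 0.759), and without array 3 these were 0.27 and −0.094. Without array 1 they were 0.68 and 0.50. Fcer1g had ratios of −0.29, 0.31, 0.94 and 0.81, so the adaptor was highest on array 3, where its receptor Oscar was lowest. Sirpa and its ligand Cd47, which act in fusion, had means of −0.39 ± 0.40 (adjusted p = 0.32) and −0.16 ± 0.48 (adjusted p = 0.7), which were −0.25 and 0.061 without array 1, and Cd47 was at −0.30 without array 3. Src, the kinase of the ruffled border, was detected in neither channel on any array.

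Of the 18 genes for RANK signalling and transcription, 3 were higher at an unadjusted p under 0.05, against 9.20% of all genes, and 0 lower, against 7.50%, and the median was 0.09. Traf6, the adaptor of RANK, had a mean ratio of 0.46 ± 0.20 (SD, n = 4; adjusted p = 0.187) and Mitf one of 0.53 ± 0.12 (adjusted p = 0.144). Both were above 0 on every array, and both are named after their values were seen. Mitf had ratios of 0.35, 0.63, 0.57 and 0.57, which do not follow the order of Acp5 and Ctsk. Nfatc1, the master regulator of osteoclast genes, had the lowest mean of this list, −0.13 ± 0.20 (adjusted p = 0.578), followed by Jdp2 at −0.06 ± 0.30 (adjusted p = 0.841). The order of these 2 was not stable: Nfatc1 was at −0.059 without array 3 and −0.10 without array 4, where Jdp2 was at −0.059 and −0.16, and Jdp2 was at 0.077 without array 1. The highest were 2 repressors: Prdm1 (Blimp1), which removes inhibitors of osteoclast formation, at 1.15 ± 1.37 (adjusted p = 0.323), and Bcl6, which holds osteoclast genes down, at 0.55 ± 0.40 (adjusted p = 0.234). Prdm1 had a ratio of 2.97 on array 1 and −0.25 on array 4, and its mean was 0.55 without array 1.

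Of the 5 precursor growth factor genes, 1 was lower at an unadjusted p under 0.05, against 7.50% of all genes: Kitl (stem cell factor), at −0.44 ± 0.18 (SD, n = 4; adjusted p = 0.191), with 4 of 4 arrays below 0. Its receptor Kit had a mean of −0.55 ± 0.69 (adjusted p = 0.358). Csf1r, the receptor of M-CSF that every osteoclast precursor carries, had one of 0.20 ± 0.31 (adjusted p = 0.516), and Il34, its second ligand, one of 0.08 ± 0.36 (adjusted p = 0.81). Without array 1 the mean of Kit was −0.35 and that of Il34 −0.079, and without array 4 that of Csf1r was 0.054. Il34 was at 0.20 without array 3. The list's median was 0.03. Of the 19 tested genes for signals that act on Tnfsf11 or RANK, 2 were higher at an unadjusted p under 0.05, against 9.20% of all genes, and 0 lower. These were the prostaglandin receptor Ptger4, at 0.70 ± 0.55 (adjusted p = 0.235), and the cytokine gene Tnf, at 0.73 ± 0.41 (adjusted p = 0.173), the latter named after its values were seen and detected in Cy3 on 3 of 4 arrays. The vitamin D receptor Vdr stood at 0.28 ± 0.30 (adjusted p = 0.377). The lowest means of this list belonged to Calca, which encodes calcitonin and CGRP, at −1.81 ± 3.04 (adjusted p = 0.447), and to Ramp3 at −0.71 ± 0.97 (adjusted p = 0.378). Without array 1, Vdr was at 0.15, Ptger4 at 0.46 and Ramp3 at −0.43. The mean of Calca also rests on array 1, with ratios of −6.25, −0.86, −0.78 and 0.64. Iapp, which encodes amylin, was detected nowhere, and the median of the list was 0.07.

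The extracts carried markers of bone, marrow, muscle, nerve and mucosa, and the balance of these differed between arrays. Of the 13 osteoblast and osteocyte markers 12 had a probe, and 11 were detected in both channels throughout. In Cy5 their summed signal was 227192 to 395794, against 256042 to 531021 in Cy3. The median ratio of this list was −0.42, 0.17, 0.08 and 0.63 on arrays 1 to 4, highest on array 4 and lowest on array 1. The ratio of the summed signals, which the brightest markers set, was −0.51, 0.23, −0.65 and 0.63, highest on array 4 and lowest on array 3. At an unadjusted p under 0.05, 2 of the 12 were higher, Runx2 (mean 0.37, Cy3 detected on 3 of 4 arrays) and Dmp1 (0.61), against 9.20% of all genes, and 0 were lower. Col1a2, the brightest marker, and Col1a1, named with Runx2 and Dmp1 after their values were seen, were lowest on array 3 and highest on array 4, as Ctsk was, with Col1a2 at −0.38, 0.17, −0.81 and 0.75. They were 2 of the 12, against 4.55% of all genes. Dmp1, Phex, Mepe and Sost, made by osteocytes and named after their values were seen, were highest on array 3, at 0.97, 0.68, 1.85 and 1.71. For the macrophage and monocyte list, 9 of 11 markers had a probe, with sums of 27899 to 54002 (Cy5) and 37179 to 65764 (Cy3). Its medians were −0.26, 0.07, 0.19 and 0.36, while the ratio of the summed signals was −0.41, 0.02, −0.62 and −0.28, lowest on array 3. Its brightest marker, Lyz2, had a mean of −0.66 ± 0.48 (SD, n = 4; adjusted p = 0.22). In that list 6 of 9 means were above 0, against 55.3% of all genes. At an unadjusted p under 0.05, 1 of the 9 was lower, Lyz2, against 7.50% of all genes. Higher were 2 of the 9, Adgre1 (mean 0.53) and Marco (0.75), named after their values were seen, against 9.20%. Marco was detected in Cy3 on 1 of 4 arrays, so its ratio rests largely on control signals not well above background. Of genes detected in Cy5 on all arrays and in Cy3 on 1 to 3, 26.6% were higher at that threshold. Marco and Cd14, the latter also named after its values were seen, were lowest on array 3 and highest on array 4. They were 2 of the 9, against 4.55% of all genes. Csf1r stands both in this list and in a pathway list, and macrophages can express Acp5 and Ctsk.

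Markers of marrow cells also varied between arrays. The neutrophil list had medians of −1.01, −0.07, 0.56 and 0.17, with 10 of 10 markers detected throughout. The B cell medians were −0.54, 0.03, 0.47 and 0.24, the T cell medians −0.11, 0.16, 0.24 and 0.13 and the erythroid medians −0.78, 0.27, 0.44 and 0.10. Each of these 4 medians was highest on array 3, where the median of the 10 genes was lowest, and lowest on array 1, and no test of the difference was run. In the B cell list 1 of 8 was lower at an unadjusted p under 0.05, against 7.50% of all genes: Pax5 (mean −0.42), named after its values were seen. The summed neutrophil signal was 326807 to 494866 in Cy5, against 266551 to 743299 in Cy3. The brightest markers of these lists were S100a9, with a mean of 0.34 ± 1.13 (SD, n = 4; adjusted p = 0.695), Cd79b at −0.18 ± 0.58 (adjusted p = 0.71), Cd3e at −0.20 ± 0.32 (adjusted p = 0.531) and Hba-a1 at 0.53 ± 0.71 (adjusted p = 0.381). All 4 means moved with single arrays: without array 1 S100a9 was at 0.84, Cd79b at 0.084, Cd3e at −0.33 and Hba-a1 at 0.86, and without array 3 S100a9 was at −0.039, Cd79b at −0.38 and Cd3e at −0.094, while Hba-a1 was at 0.34 without array 4.

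The neuron list had 0 of 10 mean ratios above 0, with medians of −2.40, −1.81, −0.49 and 0.33 and summed signals of 18032 to 30883 (Cy5) and 22531 to 75500.4 (Cy3). Its brightest marker, Snap25, had a mean of −0.67 ± 0.48 (SD, n = 4; adjusted p = 0.217). Of the 10, 5 were lower at an unadjusted p under 0.05, against 7.50% of all genes, and 6 were past 2-fold lower, against 4.10%. The muscle medians were −0.82, −0.51, 0.75 and 0.80 (Myh4 −0.21 ± 0.76, adjusted p = 0.731). The cartilage medians were −0.39, 0.49, 0.45 and 0.22 (Col2a1 0.11 ± 0.39, adjusted p = 0.761), and those of the mucosal epithelium −0.26, 0.35, −0.91 and −0.50 (Bpifa1 0.20 ± 0.39, adjusted p = 0.562). In the cartilage list 1 of 7 was higher at an unadjusted p under 0.05, against 9.20% of all genes: Matn3 (mean 1.27, Cy3 detected on 1 array), named after its values were seen. In the mucosal list 3 of 9 means were above 0, against 55.3% of all genes. At an unadjusted p under 0.05, 1 of the 9 was lower, against 7.50%: Muc5b (mean −1.41), a secreted mucin named after its values were seen. Without array 2 the mean of Col2a1 was −0.019, that of Myh4 0.051 and that of Bpifa1 0.013. Without array 1 Col2a1 was at 0.29 and Myh4 at −0.064, and without array 3 Myh4 was at −0.51. The part of these differences in tissue in the ratios of the 10 genes was not tested. Each marker with a probe was detected in at least 1 channel on at least 1 array.

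**Figure D4:**
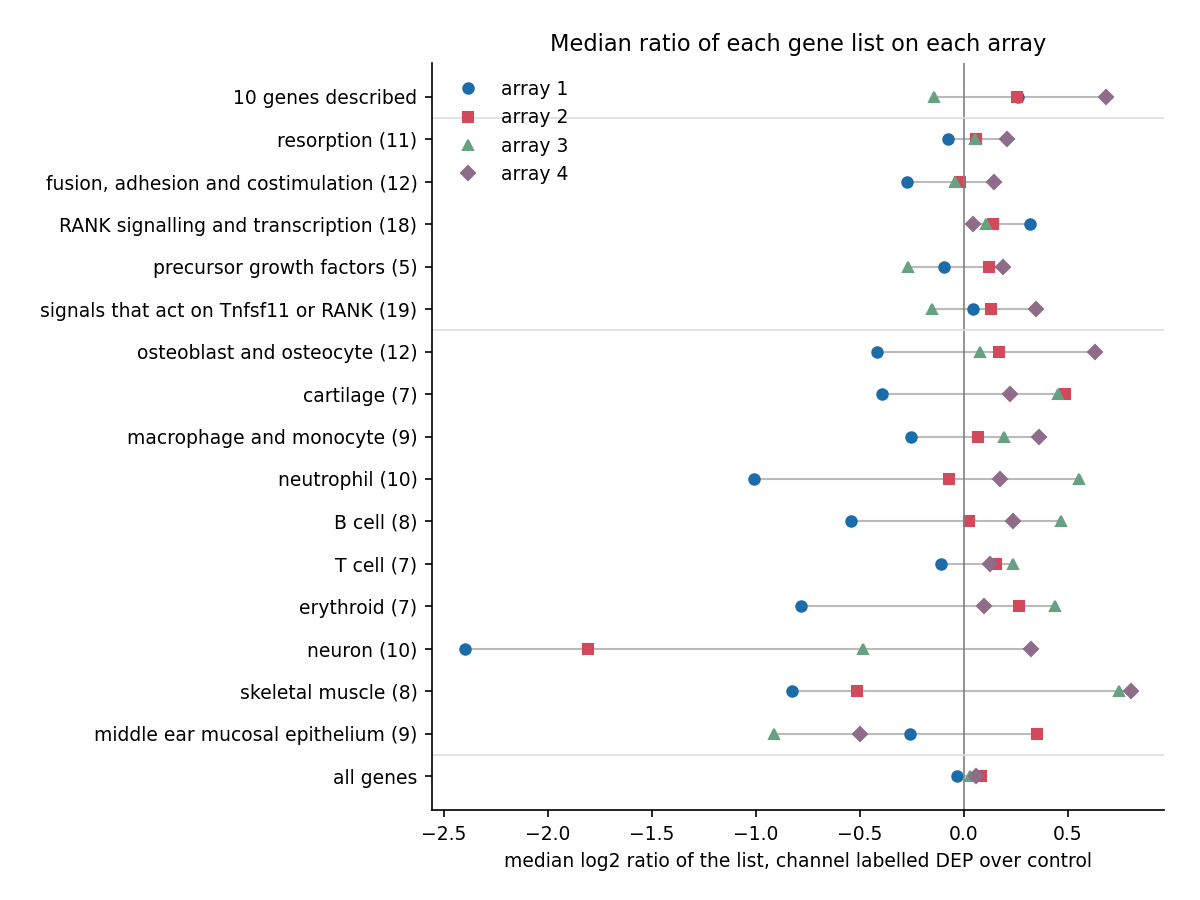
Median log2 ratio, channel labelled DEP over control, of the 10 genes, of the 5 pathway lists, of the 10 marker lists (number of tested genes in brackets) and of all genes on each of the 4 arrays. The 10 genes run from −0.14 on array 3 to 0.68 on array 4, the neuron list from −2.40 on array 1 to 0.33 on array 4, and all genes from −0.03 to 0.08.

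**Figure D5:**
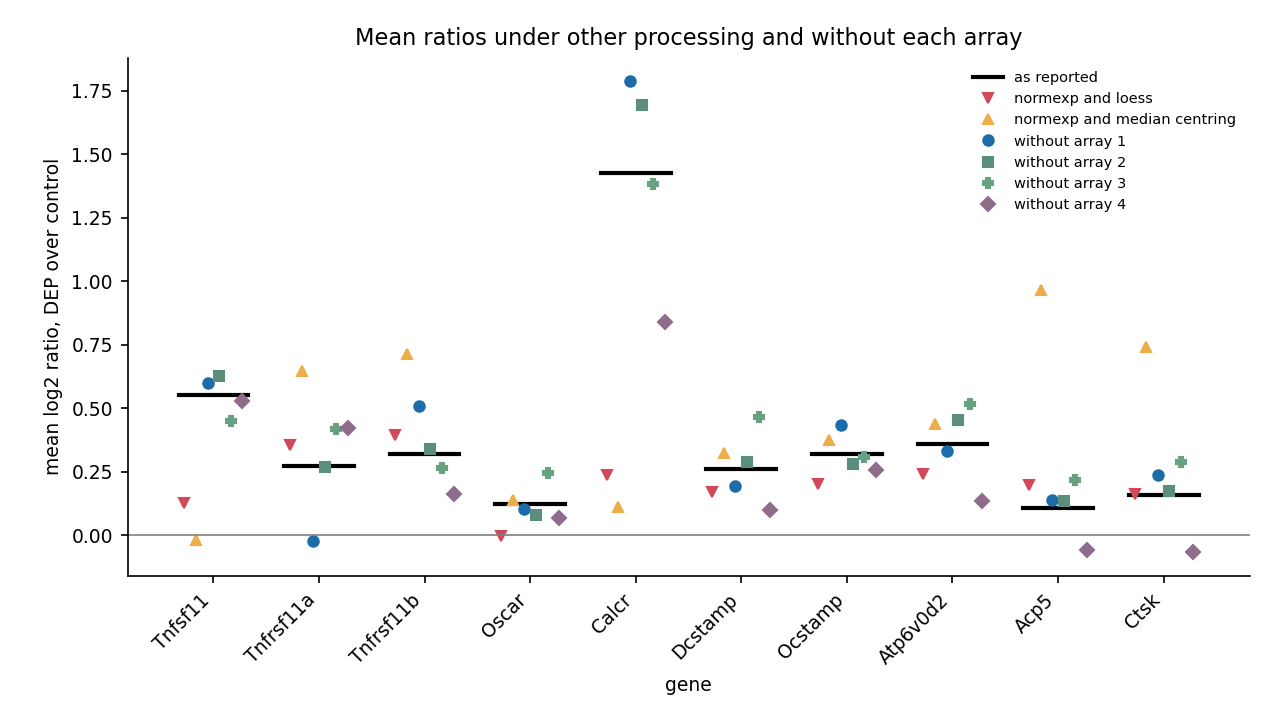
Mean log2 ratio of each of the 10 genes as reported (black line), with normexp background correction followed by loess or median centring, and without each array in turn. Calcr runs from 0.11 to 1.79, and Tnfsf11, Tnfrsf11a, Oscar, Acp5 and Ctsk each lie below 0 under 1 of these settings.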

How the data were processed

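The authors scanned 4 two-colour arrays of 1 slide and quantified the spots with Agilent Feature Extraction 10.10.1.1. The deposited files give, per spot, an intensity for each channel (background-subtracted and dye-normalized within the array), a log10 ratio of Cy5 over Cy3, set to 0 where the software gives none, and flags of 0 or 1. The authors' deposited table of log10 ratios holds the same values rounded and served as an alternative. Each array is 1 replicate of the comparison, with 1 slide and 1 scan no batch can be tested, and 0 value columns lack a sample.

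Log10 ratios were converted to log2. Control spots, flagged spots (164 to 274 per array) and spots without a ratio (6179 to 8558 of 43020) were left out, spots of a probe were averaged, and a probe needed ratios on at least 3 arrays. Accessions named 27655 of 39429 probes through RefSeq (GRCm38.p6), whose coordinates were used for the promoter windows only. An intercept was fitted with limma 3.58.1 in R 4.3.3 (lmFit, eBayes, prior degrees of freedom 1.98). The threshold was an adjusted p under 0.05. Python 3.11.15 with numpy 2.4.6, pandas 2.3.3 and (for figures) matplotlib 3.10.9 did the rest. The methods of the paper name no test.

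The 10 genes and all gene lists were chosen with earlier results of these data known. All probes of the 10 genes are named. From each pathway list the text names the 2 highest and the 2 lowest mean ratios among genes detected in both channels throughout, and from each marker list the brightest gene and any gene not above background. Exceptions are marked.

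The fit was tested on simulated data: of 200 probes changed among 31577, the fit called 56 of 100 with a log2 change of 2 and 20 of 100 with a change of 1, and made 2 false calls. The simulated noise was normal and independent between probes, so these counts need not hold for the real arrays. The alternatives were normexp (offset 50) with loess or median centring, the deposited ratio table, keeping spots without a ratio or flagged spots, the mean of a gene's probes, filters on dim probes, eBayes with a trend, no moderation, and leaving out each array. Normexp was run on median spot signals, as mean signals are not given, a departure from the design. The number of arrays and the signal over background limit the precision. The array design names build mm9, so gene coordinates of GRCm38 are not given. The qRT-PCR data were not used here.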

Additional observations from a re-analysis of the deposited data

Results flagged for a closer look

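Among 43 sets of 4 array values tested for a sample far from the others (by Dixon's gap over range), 1 stood out, and chance alone gives about 1 in 20. It was the log2 ratio of Bpifa1, a secreted defence protein of the airway and middle ear mucosa and the brightest marker of the mucosal epithelium, which was 0.778 on array 2 against -0.06, 0.03 and 0.07 on arrays 1, 3 and 4 (gap over range 0.844). The ratios of the 10 osteoclast genes and regulators, by all 12 probes, passed the limit on no array.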

How the results depend on the processing

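Of 138 mean ratios of the 10 genes under 14 alternatives, 132 kept their direction and stayed on the same side of the threshold, 5 changed sign and 1 passed it. Much of this agreement was fixed in advance. Keeping spots without a ratio or flagged spots, the filters, the trend and no moderation could change no mean ratio of these genes. The deposited table holds the same ratios rounded. All 5 sign changes came with normexp or with an array left out. The sign changed for Oscar (-0.0023, normexp and loess), Tnfsf11 (-0.020, normexp and median centring), Tnfrsf11a (-0.024 without array 1), Acp5 (-0.059 without array 4) and Ctsk (-0.068 without array 4). Leaving out 1 array at a time gave at most 0.42 for Tnfrsf11a (without array 4), 0.22 for Acp5 and 0.29 for Ctsk (both without array 3). Normexp and median centring gave their highest values, 0.65, 0.97 and 0.74, and the highest of Tnfrsf11b, 0.71, and Acp5 passed there (adjusted p = 0.0341). With normexp and loess, 0 of the 10 genes had an unadjusted p under 0.05, 0 were past 2-fold and 0 were higher on all arrays, 11 other pathway genes had an unadjusted p under 0.05, and Tnfsf11 minus Tnfrsf11b was -0.26. With normexp and median centring the counts were 5, 0 and 7, with 1 gene at an adjusted p under 0.05. There 29 pathway genes had an unadjusted and 9 an adjusted p under 0.05, and the difference was -0.74. Of all named genes 12.4% had an adjusted p under 0.05 with this setting, and the median of all genes was 0.19. For the other counts of this paragraph the shares of all genes were not counted, so they are no result about these genes. Requiring both channels well above background, which leaves out Calcr and Tnfsf11, gave 1, 0 and 0, and without moderation 1 gene had an unadjusted p under 0.05.

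Leaving out 1 array at a time gave 1 to 4 of the 10 genes with an unadjusted p under 0.05 (4 without array 1, 1 without array 3), 2 to 6 higher on all arrays that were left (4 without array 1, 6 without array 3), 0 to 1 past 2-fold (0 without array 4), and 4 to 12 pathway genes with an unadjusted p under 0.05 (12 without array 1 or 4, 4 without array 2 or 3). The shares of all genes in these fits were not counted, so the counts are no result about these genes. The difference between Tnfsf11 and Tnfrsf11b ran from 0.09 to 0.37. The causes were not tested. The alternatives for the order of the arrays, the restriction to detected genes among them, were chosen after seeing the data. Each ratio already pairs both channels of an array.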
